A study of Mus musculus with 24 samples.

Results

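Shallow whole genome sequencing (sWGS) was used to follow 5 mitosis genes of murine chromosome 1 (Chr 1) through adrenal glands and neuroblastoma tumours of transgenic mice. The genes are Kif14, Nuf2, Exo1, Cenpf and Nek2. They are 5 of the 439 protein-coding genes of distal Chr 1 and of 20604 protein-coding genes of the 19 autosomes. They were chosen by their place on the part of mouse Chr 1 that is syntenic with the long arm of human chromosome 1 (1q), and were selected on measured values too, since earlier segment values of these same tumours had shown a rise there. Their levels are therefore given as a description without a test. The synteny itself was taken from the definition of the set and was not analysed here.

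The 24 samples comprised 3 adrenal glands of wildtype CRE - mice (AG), 5 adrenal glands of MYCN fl/wt, CRE + mice (AGM), 8 tumours of IGF2BP1, CRE + mice (TI) and 8 tumours labelled IMP1/MYCN, CRE + (TIM), where IMP1 is another name of IGF2BP1. TI replicate 1 (TI1) is labelled IGF2BP1 +/-, whereas the other 7 are IGF2BP1 +/+. Each transgene sits at the Rosa26 locus behind a stop cassette that a Dbh-driven Cre recombinase removes, so that it is active in sympathoadrenal cells, and all AGM, TI and TIM animals carry this recombinase. TI6, TIM1 and TIM5 are labelled as adrenal gland tumours. AG served as the reference of the log2 ratios and has no values of its own here, which leaves 21 samples. Ages were not used here.

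Titles of all AGM and TIM samples begin with AGH, and titles of all TI samples except TI8 begin with SH, as do those of AG. What the prefixes stand for is not given in the sources used here, and prefix and genotype cannot be told apart in comparisons of TI with TIM. Per sample, 48 to 123 segments covered the autosomes. Read depth was low by design and the depth of each library and segment is unknown, so no counting interval is given. A bulk log2 ratio averages all cells of a piece of tissue, and a gain in some of the cells cannot be told apart from one in all tumour cells diluted by normal cells. The methods name individual mice as the biological replicates of the transgenic experiments, and the labels do not state an animal for each sample.

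Chromosome segregation depends on the kinetochore, the protein assembly that ties each chromosome to spindle microtubules, and on timely separation of centrosomes and daughter cells. Several members act in these steps. Nuf2 is a subunit of the NDC80 complex, which binds microtubules at the outer kinetochore. Cenpf is a large kinetochore and microtubule-binding protein of G2 and mitosis. Nek2 is a kinase that dissolves the linker between the centrosomes. Kif14 is a kinesin of the central spindle that serves cytokinesis. Exo1 differs from them in that it is an exonuclease of mismatch repair and of DNA end resection. Transcription of such genes peaks late in the cell cycle and is commonly controlled through a CHR element, bound by the DREAM and MuvB complexes, and through CCAAT boxes, bound by NF-Y. Gain of 1q recurs in human neuroblastoma.

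The members spread over much of distal Chr 1 in the GRCm39 build. Kif14 (ENSMUSG00000041498) lies at chr1:136394081-136459249 on the plus strand and is the most proximal. Nuf2 (ENSMUSG00000026683) follows 32.9 Mb further on the minus strand, at chr1:169325503-169359098. Exo1 (ENSMUSG00000039748) occupies chr1:175708143-175741055 on the plus strand. Cenpf (ENSMUSG00000026605) lies on the minus strand at chr1:189372752-189420315. Nek2 (ENSMUSG00000026622) is closest to the chromosome end, at chr1:191553548-191565162 on the plus strand and 2.13 Mb from Cenpf. Values below are for the whole gene body, exons and introns together.

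RefSeq promoter windows, from 250 bases before to 50 bases after the transcription start, were found for 4 of the 5 members, Exo1 being the other. The table is of build GRCm38.p6, and each window matched GRCm39 Chr 1 exactly at 1 place, whose coordinates are given. These windows of 3 members are shown because a segment copies a gene together with its promoter and these 3 hold the late cell cycle motifs searched, while the copy number data say nothing about their activity. Capitals mark TTTGAA (CHR) or CCAAT, searched on both strands, and no match overlapped another. Kif14 is on the plus strand at chr1:136395336-136395635, Cenpf on the minus strand at chr1:189420234-189420533 and Nek2 on the plus strand at chr1:191553335-191553634, each written 5′ to 3′ along its gene.
Kif14: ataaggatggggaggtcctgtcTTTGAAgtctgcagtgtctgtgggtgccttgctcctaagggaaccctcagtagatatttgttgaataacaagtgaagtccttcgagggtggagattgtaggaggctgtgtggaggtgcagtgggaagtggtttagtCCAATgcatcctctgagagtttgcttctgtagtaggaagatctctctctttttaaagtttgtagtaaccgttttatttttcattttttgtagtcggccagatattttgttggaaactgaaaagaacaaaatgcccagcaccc
Cenpf: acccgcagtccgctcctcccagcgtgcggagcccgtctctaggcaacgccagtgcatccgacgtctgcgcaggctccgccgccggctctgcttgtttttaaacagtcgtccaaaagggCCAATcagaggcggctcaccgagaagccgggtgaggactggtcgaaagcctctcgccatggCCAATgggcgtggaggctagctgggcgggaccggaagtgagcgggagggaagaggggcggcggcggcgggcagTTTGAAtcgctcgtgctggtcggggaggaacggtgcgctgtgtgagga
Nek2: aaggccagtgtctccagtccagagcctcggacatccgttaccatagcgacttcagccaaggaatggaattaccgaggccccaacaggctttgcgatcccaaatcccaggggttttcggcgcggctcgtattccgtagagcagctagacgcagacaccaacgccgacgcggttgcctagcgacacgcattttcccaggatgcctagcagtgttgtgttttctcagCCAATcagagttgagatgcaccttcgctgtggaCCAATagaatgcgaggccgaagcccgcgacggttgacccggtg
The RefSeq start of Kif14 lies 1505 bases inside the GENCODE gene given above, whereas those of Nuf2, Cenpf and Nek2 lie 65, 32 and 37 bases inside theirs, and motif positions refer to the RefSeq starts. Kif14 held 1 CHR, beginning 228 bases before that start, and 1 CCAAT. Cenpf held 1 CHR just after its start and 2 CCAAT boxes, 132 and 71 bases before it. Nek2 held 2 CCAAT boxes, 26 bases before and 7 bases after the start, and no TTTGAA. The Nuf2 window held neither. For comparison, 18.1% of 27025 promoter windows of the same length held TTTGAA and 37.9% held CCAAT. The E-box CACGTG was found in 0 of the 4 windows (7.24% of all windows), and TTCCCGC, an E2F site, in 0 (4.66%). A missing match says only that these letters are not in the window.

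The members were raised in 2 of the 21 samples, TI3 and TI5, and only in TI3 did they pass the gain threshold. Gains were defined as log2 ratios to wildtype adrenal gland of 0.3 or more and losses as -0.4 or less, and a value from 0.1 up to the gain threshold was termed a low-level rise. In the other 19 samples the members lay between 0.00183 and 0.0342, so that their values did not overlap with those of TI3 or TI5.

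Nuf2 represents the distal members, since Nuf2 and Exo1 shared 1 segment in every sample, and Cenpf and Nek2 shared it too except in TIM7. In AGM, Nuf2 lay at 0.0160, 0.0176, 0.0129, 0.0150 and 0.0156 in replicates 1 to 5. In TI, its log2 ratio was lowest in TI4 (0.00560), had a median of 0.0237 and was highest in TI3 (0.336). The raised tumours stood far above the rest, since TI5 lay at 0.274 and the next tumours, TI6 and TI7, both at 0.0342 and 0.0341. In TIM, Nuf2 ranged from 0.00217 in TIM12 through a median of 0.0120 to 0.0340 in TIM9. Every TIM value lay below 0.1. As group means, Nuf2 was at 0.0154 ± 0.00171 (SD, n = 5) in AGM, 0.0893 ± 0.135 (SD, n = 8) in TI and 0.0142 ± 0.00958 (SD, n = 8) in TIM. The SD in TI exceeded its mean because of TI3 and TI5, and the ranges of the 3 groups overlapped.

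Exo1 had the Nuf2 values in all 21 samples, 0.336 in TI3 and 0.274 in TI5 included. Cenpf and Nek2 also lay at 0.336 in TI3 and 0.274 in TI5. They departed from Nuf2 in TIM7, where both were at 0.0149 and Nuf2 and Exo1 at 0.0119. These 4 genes are thus 1 measurement per sample in all but TIM7, not 4 independent ones. Kif14 lay on its own segment in several tumours. It was at 0.345 in TI3, 0.229 in TI5, 0.0190 in TI7 and 0.00386 in TIM9, against 0.336, 0.274, 0.0341 and 0.0340 for Nuf2. Kif14 was thus slightly above the distal members in TI3 and below them in TI5, TI7, TIM9 and, by 0.000339, TIM12. In TIM7 Kif14 had the value of Nuf2 and Exo1 and so lay below Cenpf and Nek2. Its group means were 0.0154 ± 0.00171 (SD, n = 5) in AGM, 0.0828 ± 0.130 (SD, n = 8) in TI and 0.0104 ± 0.00598 (SD, n = 8) in TIM.

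**Figure D1:**
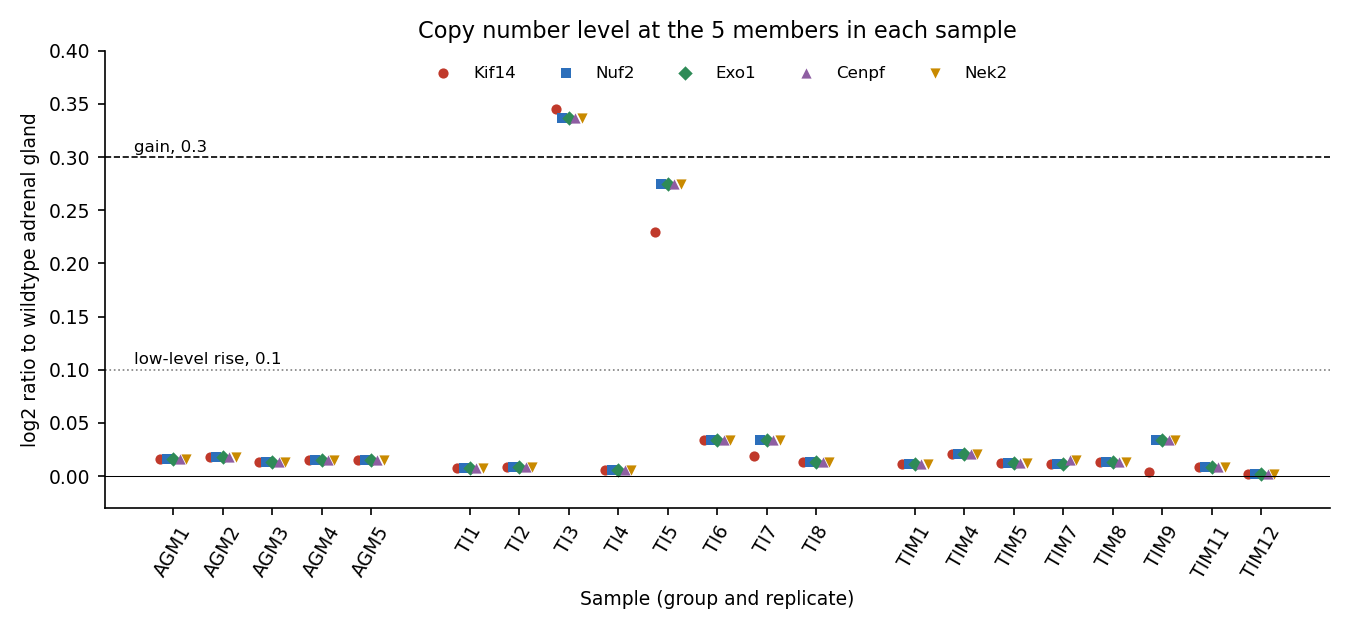
Log2 ratio to wildtype adrenal gland (y axis) at each of the 5 members (symbols) in 5 AGM, 8 TI and 8 TIM samples (x axis), with dashed and dotted lines at 0.3 and 0.1. All members lie at 0.336 or above in TI3 and from 0.229 to 0.274 in TI5, and at 0.0342 or below in the other 19 samples.

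Ordered by Nuf2, the TI tumours ran TI3, TI5, TI6, TI7, TI8, TI2, TI1 and TI4. TI8, the only TI tumour with the AGH prefix, lay at 0.0132, inside the AGM range. TI6, TI7, TIM9 and TIM4 (0.0211) lay above the highest adrenal gland (0.0176) by less than 0.02, and the first 3 of these differed from each other by less than the AGM spread. TI1, labelled IGF2BP1 +/-, was at 0.00806 and the IGF2BP1 +/+ tumours covered the whole TI range. The adrenal gland tumours lay at 0.0342 (TI6), 0.0110 (TIM1) and 0.0122 (TIM5).

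Converted to copies as 2 × 2 to the power of the log2 ratio, TI3 held on average 2.54 copies of Kif14 and 2.53 of the other members, and TI5 2.34 and 2.42. A log2 ratio of 0.585 would correspond to 3 copies in every cell. Neither tumour reached it at a member. Over Chr 12 the medians of these tumours were 0.572 (TI3) and 0.638 (TI5).

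The values nearest to the gain threshold were 0.336 (Nuf2, Exo1, Cenpf and Nek2 in TI3) just inside and 0.274 (the same genes in TI5) just outside. Counted as member and tumour combinations, 5 of 40 in TI and 0 of 40 in TIM were gains, all 5 in TI3, and a further 5 in TI5 were low-level rises. Since 4 members share a segment, these counts stand for a single tumour. Across all genes tested, 24.0% were gained in at least 1 TI tumour, 13.7% in at least 1 TIM tumour and 15.8% in TI3 itself. In TI5, 11.9% of genes were gained, none of them a member. A log2 ratio of at least 0.1 in at least 2 TI tumours, which held for all 5 members, was found for 25.4% of genes. These values chose the members, and nothing is read from the shares.

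The rise was not particular to the distal end, since proximal Chr 1 was raised in the same tumours. Chr 1 was divided at the start of Kif14 into a proximal part of 136 Mb with 769 protein-coding genes and a distal part of 58.8 Mb with 439. In TI3 the median over 20 kb bins was 0.295 in the proximal and 0.336 in the distal part, and in TI5 it was 0.229 and 0.274. Distal minus proximal came to 0.0410 in TI3 and 0.0453 in TI5. In the other 19 samples this difference lay between -0.00190 (TIM5) and 0.0150 (TIM9). The difference was 0.000626 ± 0.00140 (SD, n = 5) in AGM, 0.0115 ± 0.0196 (SD, n = 8) in TI and 0.00191 ± 0.00539 (SD, n = 8) in TIM, and exactly 0 where 1 segment spanned both parts. Without TI3 and TI5, the TI mean was 0.00100. With the mean instead of the median log2 ratio of each segment, the group mean of the difference was -0.000660 in AGM, 0.00733 in TI and 0.00711 in TIM. TI3 and TI5 did not stand apart by that measure. Their longest proximal and distal segments had means of 0.3073 and 0.3248 (TI3) and 0.2745 and 0.2963 (TI5). The steps were wider in TIM9 (0.0266 and 0.0579) and TIM12 (-0.0631 and -0.0329). With the median log2 ratio, the ranges of TI and TIM overlapped, and the median was 0 in both.

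Because the TI3 proximal level of 0.295 fell just short of the threshold, a small step made a large difference in the count of gains. In TI3, 393 of 439 distal genes (89.5%) but 125 of 769 proximal genes (16.3%) were gains. This contrast depends on the median log2 ratio. By the mean log2 ratio, the proximal TI3 segment of 89.5 Mb with 569 genes lay at 0.307, above the threshold. In TI5 there were 0 gains in either part. Chr 1 as a whole had rank 3 in TI3 among the 19 autosomes by median, after Chr 12 (0.572) and Chr 6 (0.506). In TI5 it had rank 4, after Chr 12 (0.638), Chr 11 (0.338) and Chr 17 (0.256). Between the chromosome ends, all of Chr 1 took part in the rise in both tumours, save for a focal loss in TI5. At the ends, the first 3.06 Mb, without a protein-coding gene, were listed at 0 in both tumours. So were the last 94.3 kb in TI3, which hold no known base of the reference and no protein-coding gene.

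Along the chromosome the raised level was stepped. In TI3, segments of 0.184, 0.295, 0.194, 0.345, 0.197 and 0.336 followed each other from 3.06 Mb to 195 Mb. Kif14 sat in the 10.9 Mb segment at 0.345, whose distal boundary lay 141 kb beyond the gene, and the other members sat in the 43.3 Mb segment at 0.336. Between them a trough of 15.2 Mb (chr1:136600001-151800000) at 0.197 held 46 protein-coding genes and no member. TI5 had the same order, with Kif14 in a 112 Mb segment at 0.229, a trough of 10.4 Mb (chr1:137100001-147520000) at 0.137, and the other 4 members in 47.6 Mb at 0.274. The Kif14 segment ended 641 kb beyond the gene.

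Steps at these places also occurred in tumours without a rise. A boundary within 1 Mb of the Kif14 start was present in TI3, TI5, TIM9 and TIM12, all between positions 136320000 and 137100000. A boundary between positions 147520000 and 151800000 was present in these 4 tumours and in TI7. In TIM9 the trough (chr1:136320001-150040000) began 74.1 kb before Kif14 and so held it, at 0.00386 between neighbours of 0.0336 and 0.0340. In TIM12 the trough lay at -0.00666 between 0.00183 and 0.00217. The AGM adrenal glands had 1 segment over Chr 1, except AGM1 with 3. Kif14 was thus on the higher side of this boundary in TI3, TI5 and TIM12 and on the lower side in TIM9.

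The steps went largely with base composition. In TI3 the 3 segments from 0.184 to 0.197 had a GC content of 38.2 to 39.4%, whereas those at 0.295, 0.336 and 0.345 had 41.0, 43.0 and 44.6%. In TI5 the segments at 0.137, 0.198, 0.229 and 0.274 had 37.6, 39.9, 41.1 and 42.6%. The same held in TIM9, where the 2 troughs (0.00386 and 0.00563) had 37.9 and 38.2% and the other 3 segments 40.9 to 43.5%. In TIM5 the order held only in part. There the segment with all members had 42.1% and lay at 0.0122, below a proximal segment of 41.0% at 0.0141. Proximal Chr 1 had 40.9% and distal Chr 1 41.7%. The part of GC content in the distal minus proximal difference was not tested. The segments of lowest GC content lay at 0.197 in TI3 and 0.137 in TI5. Its part in the rise of the whole chromosome was not tested either.

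**Figure D2:**
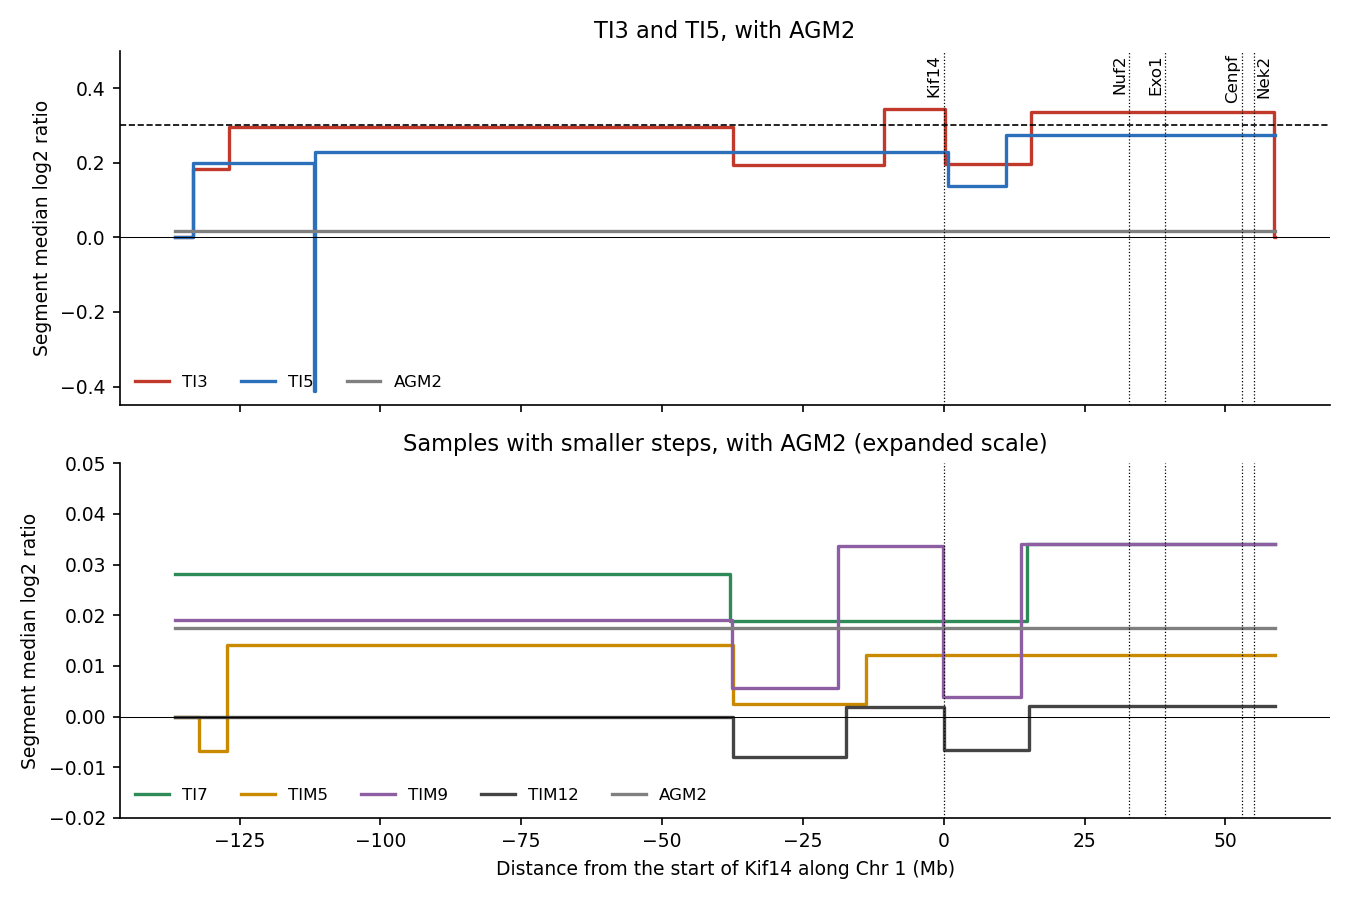
Median log2 ratio of each Chr 1 segment (y axis) against the distance in Mb from the start of Kif14 (x axis), with dotted lines at the members and a dashed line at the gain threshold of 0.3; the upper plot shows TI3 and TI5 and the lower, on an expanded scale, TI7, TIM5, TIM9 and TIM12, each with the adrenal gland AGM2. TI3 and TI5 are raised on both sides of Kif14, with a trough between Kif14 and Nuf2. TIM12 shows a trough there near 0, and that of TIM9 begins just before Kif14 and holds it.

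**Figure D3:**
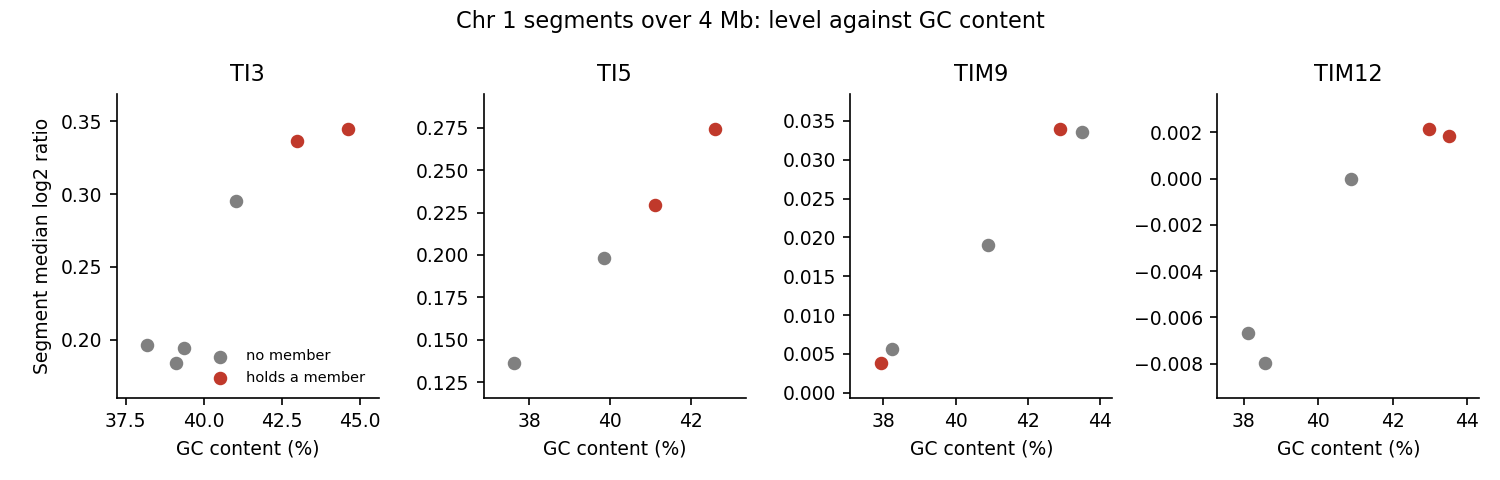
Median log2 ratio (y axis, own scale in each plot) against GC content in percent (x axis) for Chr 1 segments over 4 Mb in TI3, TI5, TIM9 and TIM12; red points hold at least 1 member. In each of the 4 tumours the segments under 40% lie below those over 40%, and Kif14 lies in a low-GC segment in TIM9 only.

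Other growth and mitosis genes listed for Chr 1 had the values of their segments. Of 12 such genes distal to the Kif14 start, 10 were gains in TI3 and 0 in TI5. Of 12 proximal to it, 3 were gains in TI3 and 0 in TI5. The proximal genes at 0.295 in TI3 lay at 0.307, over the threshold, by the mean log2 ratio of their segment. The highest in TI3 included Ube2t, a ubiquitin-conjugating enzyme of the Fanconi anaemia pathway, the p53 inhibitor Mdm4 and the replication helicase subunit Mcm6, all proximal to Kif14 and at 0.345. The lowest distal gene was Aspm, a spindle pole protein, which lies in the trough at 0.197 in TI3 and 0.137 in TI5. Nek7, a kinase of the Nek2 family, had the values of Aspm. The kinetochore genes Nsl1 and Cenpl had those of Nuf2. The lowest proximal gene in TI5 was Mcm3 (0.198), and the proximal median was 0.295 in TI3 and 0.229 in TI5.

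Losses on Chr 1 spared the members. There were 4 segments at or below -0.4 on this chromosome over the 21 samples, 1 each in AGM1, TI5, TIM4 and TIM7. The one nearest to a member was in TIM7, 660 kb at -0.97 (chr1:185460001-186120000). It overlapped 1 protein-coding gene, Lyplal1, and ended 3.25 Mb before Cenpf. The segment beyond it, with Cenpf and Nek2, lay at 0.0149, within the AGM range. The loss nearest to Kif14 was 160 kb in AGM1, 42.5 Mb away.

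Profiles most like the mean level of the members were sought among protein-coding genes outside Chr 1 by Pearson correlation over the 21 samples, with 1 gene per distinct profile. They were Zfp217 (r = 0.77) and Tshz2 (0.77) on Chr 2, Fadd (0.77) and Shank2 (0.77) on Chr 7, and Sp8 (0.65) on Chr 12. These coefficients are a description, and the samples share a reference and a normalization. The likeness of the Chr 2 genes rested on TI3, where Zfp217 was at 1.47, while it was at 0.00971 in TI5. Without TI3 and TI5 its coefficient was -0.10. For Fadd, at 0.265 in TI3 and 0.00613 in TI5, it was 0.73, over values near 0. Sp8 was raised in both, to 0.574 in TI3 and 0.639 in TI5, and was a gain in 4 TI tumours.

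Mitosis and repair genes elsewhere in the genome were then compared between TI and TIM, to place the members among the machinery they work with. The 8 lists held 78 genes, of which 4 (Nsl1, Cenpl, Nek7 and Pms1) lie on Chr 1 and were left out, leaving 74. With the two-sided exact permutation test of the difference of means and Benjamini-Hochberg adjustment over all 20604 genes, 11 list genes were higher and 21 were lower in TI. Over all genes, 11.7% were called higher and 15.9% lower. The median difference was -0.0129 over the list genes and -0.0125 over all genes. Of the 32 calls, 24 differed by at least 0.1 on the log2 scale, 11 of them higher and 13 lower, beside 4408 of 5674 calls over all genes, 2401 higher and 2007 lower. Genes of 1 chromosome mostly shared segments. The 11 higher genes lay on Chr 11 (3), Chr 12 (3) and Chr 17 (5), and the 21 lower on Chr 4 (5), Chr 9 (9), Chr 13 (4) and Chr 19 (3). Leaving out any 1 TI tumour left 32 to 34 list genes called, and leaving out any 1 of the 8 TIM tumours left 12 to 16. These counts were 26 to 34 and 27 to 32 where the two-sided p was taken as the doubled smaller tail, which is the same as the test used where both groups have 8 tumours. With the tumours outside the adrenal gland only, 14 list genes were called, and with the exact test of Fisher on counts of gains 0 (6 at an unadjusted p under 0.05).

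By list, 2 of 11 outer kinetochore genes were higher and 1 was lower, and of 13 inner kinetochore genes 2 were higher and 2 lower. Mitotic kinesins had 2 higher and 5 lower of 10, and the spindle checkpoint 0 higher and 4 lower of 9. Among 12 chromosomal passenger proteins and mitotic kinases 2 were higher and 3 lower. The centrosome linker had 1 lower of 3, cytokinesis 1 lower of 5, and mismatch repair and resection 3 higher and 4 lower of 11.

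The largest differences were on Chr 11. Birc5, the survivin subunit of the chromosomal passenger complex, lay in TI from 0.0276 through a median of 0.596 to 0.962, and in TIM from 0.00784 through 0.0129 to 0.581. It was a gain in 7 of 8 TI and 1 of 8 TIM tumours and differed by 0.47 (adjusted p = 0.0196, exact permutation test). Ska2, of the microtubule-binding SKA complex at the outer kinetochore, differed by 0.44 (adjusted p = 0.0170, exact permutation test), and the kinesin Kif18b, which acts on microtubule plus ends, by 0.43 (adjusted p = 0.0215, exact permutation test). Both were gains in 7 TI and 2 TIM tumours. AGM levels of these 3 genes ranged from 0.00925 to 0.0145.

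On Chr 12, Cenpo, an inner kinetochore protein, ranged in TI from 0.0642 to 0.638 and in TIM from 0 to 0.0234. Groups did not overlap, and the difference was 0.41 (adjusted p = 0.00500, exact permutation test, with 0.000155 the smallest unadjusted p that 8 against 8 tumours allow). Nek9, a kinase that activates Nek6 and Nek7, and the mismatch repair protein Mlh3 shared 1 profile, from 0.0642 to 0.638 in TI and up to 0.0432 in TIM. Their difference was 0.40 with the same adjusted p. Each of the 3 was a gain in 5 TI and 0 TIM tumours, against 1 TI tumour for the members.

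Crocc, or rootletin, a linker protein that Nek2 acts on, was lower by 0.27 (adjusted p = 0.0303, exact permutation test), with a median of -0.0638 and a range from -0.996 to 0.0134 in TI. The 2 losses behind it were in TI4 (-0.996) and TI6 (-0.907), and the difference fell to -0.17 without TI4 and -0.18 without TI6. Kif15, a spindle kinesin, was lower by 0.26 (adjusted p = 0.0138, exact permutation test), with a TI median of -0.122. Without TI7, which was at the lowest TI level, its difference was -0.15 at the same adjusted p. Mre11a, a nuclease that starts end resection ahead of Exo1, was lower by 0.24 (adjusted p = 0.0143, exact permutation test). Without any 1 TIM tumour, Crocc and Kif15 were no longer called (adjusted p from 0.0578 to 0.278, exact permutation test), whereas with the doubled tail these values were 0.0175 to 0.0496. With that tail Crocc lost the call without TI1, TI3, TI4, TI5 or TI7 instead (up to 0.0606, exact permutation test). Ska2 and Kif18b lost it without TIM1, TIM4, TIM7, TIM8, TIM11 or TIM12, and Ndc80, a partner of Nuf2, without any 1 TIM tumour (adjusted p up to 0.0673, exact permutation test), and with the doubled tail did not. TI8, the tumour that shares its title prefix with TIM, lay beyond all 8 TIM tumours in the called direction for 14 of the 32 genes. TI8 was at 0.587 for Birc5 and Ska2, above the highest TIM tumour (0.581 and 0.545), and at 0.559 for Cenpo. It was not beyond all TIM tumours for Kif18b, at 0.587 against 0.588 in the highest. For Crocc it was at 0.0134, just above the highest TIM tumour (0.0123).

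The partners of Nuf2 in the NDC80 complex are named here because of that role, with their values known. Ndc80 was higher in TI by 0.20 (0.210 ± 0.215 against 0.0119 ± 0.00640, SD, n = 8 each, adjusted p = 0.0226, exact permutation test). Spc24 was lower by 0.18 (-0.168 ± 0.153 against 0.0100 ± 0.00598, SD, n = 8 each, adjusted p = 0.0138, exact permutation test). Spc25 was at 0.0335 ± 0.0916 in TI and 0.0119 ± 0.00587 in TIM (SD, n = 8 each, adjusted p = 0.812, exact permutation test). The partners thus did not move in 1 direction. In the tumours with raised members, 8 of the 74 list genes outside Chr 1 were gains in TI3 (10.8%) and 9 in TI5 (12.2%), beside 15.8% and 11.9% of all genes.

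**Figure D4:**
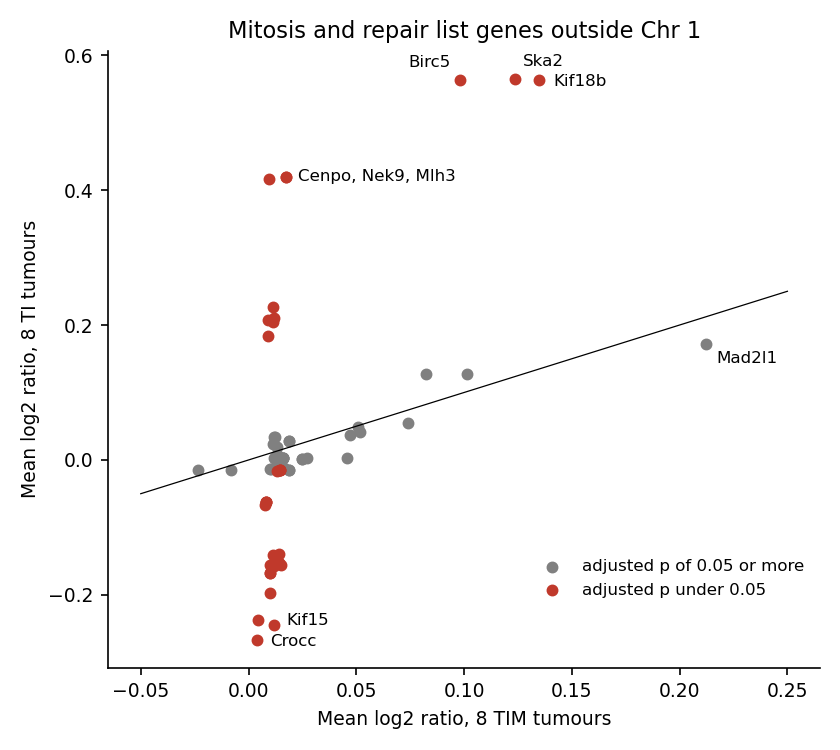
Mean log2 ratio to wildtype adrenal gland over 8 TI tumours (y axis) against that over 8 TIM tumours (x axis), each point 1 of the 74 mitosis and repair list genes outside Chr 1, red where the adjusted p of the exact permutation test was under 0.05, with the line of equal levels. Genes of Chr 11 and Chr 12 (Birc5, Ska2, Kif18b, Cenpo, Nek9 and Mlh3) lie highest above the line and Crocc and Kif15 lowest below it.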

How the data were processed

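Genomic DNA of murine adrenal glands and tumours was sequenced at low coverage. Per the labels and the study's methods, cutadapt 2.8, HISAT2 2.1.0 (mm39) and SAMtools 1.10 processed the reads, and the authors called copy number with cn.MOPS. They deposited, for every segment, a median and a mean log2 ratio to wildtype adrenal glands (1485 segments, 21 samples, 19 autosomes). Coverage is stated only for the study as a whole, and window length, GC correction and the depth of each library and segment are not given in the sources used here.

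A gene's level was the overlap-weighted mean of the deposited median log2 ratio over its body. The lengths of 19 autosomes equalled GRCm39, and positions came from GENCODE M39. Chr 1 was summarised over 20 kb bins. Thresholds of 0.3 and -0.4 were those of the study. For each gene, means of TI and TIM were compared by exact permutation (two-sided), adjusted after Benjamini-Hochberg over 20604 genes and called at an adjusted p under 0.05, and calls were read only for list genes outside Chr 1. The members and lists were chosen with earlier results of these data known. Named list genes were at most 10 called ones by size of difference and, on Chr 1, the highest and lowest, with a few named for their role. The counts include 1 called list gene whose values are not reported here. Alternatives were gain thresholds of 0.2, 0.1 and 0.5, the mean log2 ratio, copy number of at least 3, gene starts, other Chr 1 limits, means over bins, rank sums, Fisher's test, all annotated genes, subsets by genotype, site or prefix, a replicate block, each AGM replicate left out and, added after seeing the data, TI3 and TI5 left out, each TI and TIM replicate left out, and the smaller tail doubled as the two-sided p. Functions were tested on simulated data. Software was matplotlib 3.10.9, pandas 2.3.3, scipy 1.17.1, numpy 2.4.6 and Python 3.11.15.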

Additional observations from a re-analysis of the deposited data

Results flagged for a closer look

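Within groups of 4 to 10 samples, a highest or lowest sample was marked where its gap to the nearest other sample was large for the range of the group. This was asked of 24 sets of values (8 measures of Chr 1 in 3 groups), and by chance about 1 in 20 sets would be marked. In 3 sets a sample stood apart. The distal minus proximal difference of Chr 1 was 0.00313 in AGM1 and 0 in the other 4 adrenal glands, and AGM1 had 3 segments on Chr 1 where the others had 1. The middle segment of AGM1 is a focal loss of 160 kb at -0.80, with 0.0129 before and 0.0160 after it. Both marks of AGM1 thus come from the same split of Chr 1. With the other 4 values tied, the rate of 1 in 20 does not apply to them. In TIM9 the distal minus proximal difference was 0.0150, and the next highest TIM tumour was at 0.00217. No TI value was marked, since TI3 and TI5 were raised together.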

How the results depend on the processing

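The count of member and tumour combinations with a gain in TI, 5 in the report, became 10 at gain thresholds of 0.2 and of 0.1, when TI5 was added to TI3, and 0 at a threshold of 0.5. It was 5 with the mean log2 ratio, with gene starts and with a copy number rounded to at least 3. In TIM it was 0 under each of these 6 alternatives. The distal minus proximal difference moved by less than 1 SD in every group under the alternatives run, an SD that TI3 and TI5 make wide in TI. With the mean log2 ratio it was -0.000660 in AGM, 0.00733 in TI and 0.00711 in TIM, and as a mean over bins 0.000181 in TIM. Leaving out each AGM replicate gave 0 to 0.000783. The count of genes called between TI and TIM, 5674 over all genes and 32 in the lists, was 2491 and 14 with tumours outside the adrenal gland only (3884 and 17 with the smaller tail doubled), 0 and 0 with Fisher's exact test on gains (1345 and 6 at an unadjusted p under 0.05), and 19411 of all annotated genes. The list count was 31 in that last setting. It lay between 23 and 34 with rank sums, the mean log2 ratio, IGF2BP1 +/+ tumours only and without TI8. Leaving out each TI or TIM tumour in turn gave 1953 to 7960 over all genes and 12 to 34 in the lists. The low values all come from leaving out a TIM tumour (1953 to 2461 and 12 to 16). There the groups are unequal and the definition of the two-sided p matters, since with the smaller tail doubled the counts were 4217 to 6067 and 27 to 32 without a TIM tumour, and 4115 to 7387 and 26 to 34 without a TI tumour. With a replicate block over the 5 pairs of TI and TIM tumours that share a replicate number, 0 genes were called by the exact sign-flip test, and 0 had an unadjusted p under 0.05, since the smallest p it allows is 0.0625. The numbers do not pair the samples, as correlations of same-numbered deviations ran from -0.365 to 0.409 and 2 of 5 were highest with their own number. Depth per segment is unknown, so that steps of 0.01 to 0.05 cannot be set against a counting error.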
